A study of Rattus norvegicus with 8 samples.

Results

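The miR-7 family is a small group of microRNAs (miRNAs) that shares its mature guide sequence almost to the base. All entries of the Agilent rat miRNA array named miR-7a or miR-7b, whatever their precursor or arm, were taken as the family. This gave 4 of the 758 miRNAs on the array: rno-miR-7a-5p, rno-miR-7b, rno-miR-7a-2-3p and rno-miR-7a-1-3p, written here without the species prefix. They were chosen with the values of the sham-operated group known. Every difference of theirs that holds a sham array is therefore given as a description with no test.

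The study followed vestibular compensation, the recovery of posture and gaze after the loss of 1 labyrinth, in male Sprague–Dawley rats aged 7 weeks. In the unilateral vestibular deafferentation (UVD) group, the left labyrinth was destroyed by drilling into the bone of the inner ear and injecting ethanol. In the sham operation (SO) group, the left ear was operated on in the same way, but the inner ear was neither opened nor injected. The medial vestibular nucleus (MVN) of the left side was dissected 4 h or 4 d after surgery, and the tissue of 3 animals was pooled for each array, with 2 arrays per group and timepoint. The values of a group are thus those of 2 pools, and the spread between single animals was not measured. There was no unoperated group, so every level is that of an operated animal. In pieces of tissue such as these, fewer cells of a type and less RNA per cell cannot be told apart.

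All 8 arrays lay on 1 slide and were read in 1 scan, and between 378 and 430 miRNAs were detected on each, with no saturated spot among the miRNA probes. Row 1 of the slide held the SO arrays and row 2 the UVD arrays, and the timepoints were in separate columns. Position on the slide and group therefore cannot be told apart. All 13 neuron-enriched miRNAs that were listed to check the tissue, among them miR-124-3p and miR-9a-5p, were detected on all 8 arrays. Of all 758 miRNAs, 377 were. The list stands for neurons and does not mark the MVN.

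A miRNA is cut from a hairpin precursor as a pair of arms. The arm that is loaded into an Argonaute protein, here the 5p arm of miR-7, guides it to messenger RNAs that pair with its seed near the 5′ end, while the other arm is usually degraded. miR-7 is abundant in neuroendocrine cells such as those of the pancreatic islets, the pituitary and the hypothalamus, and is also found in neurons. In the brain it is bound by the circular RNA Cdr1as, which carries many sites for it, and the long noncoding RNA Cyrano triggers its decay.

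The mature sequences are shown because they decide which members the array can tell apart. They are those of RefSeq on the rat assembly GRCr8, 5′ to 3′, with the seed (bases 2 to 8) in capitals.
miR-7a-5p: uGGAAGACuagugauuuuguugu
miR-7b: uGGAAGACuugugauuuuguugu
miR-7a-2-3p: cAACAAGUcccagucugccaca
miR-7a-1-3p: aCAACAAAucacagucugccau

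miR-7a-5p and miR-7b had the same seed, which no other array miRNA with a known sequence had (685 of 758 had one). Over their 23 bases they differed by A10U, counted from the 5′ end with the base of miR-7a-5p first. How much miR-7b RNA bound the probes of miR-7a-5p, or the reverse, was not measured. The 3p arms had other seeds. miR-7a-1-3p and miR-7a-2-3p, aligned with the first base of the latter under the second of the former, were identical at 18 of 21 bases, and differed by A8G, A11C and U22C in the numbering of miR-7a-1-3p. The seed of miR-7a-1-3p was also that of miR-3065-5p.

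The family is encoded by 3 genes, which RefSeq names Mir7-1, Mir8 and Mir9. The latter names are historical rat symbols with the synonyms Mir7a-2 and Mir7b, and they do not stand for miR-8 or miR-9. miR-7a-5p is made from both miR-7a genes, so its level sums their output. Its copies lie at chr17:6278710-6278732 in Mir7-1 and at chr1:142215818-142215840 in Mir8, both on the plus strand. Each 3p arm comes from 1 gene, miR-7a-1-3p at chr17:6278751-6278772 in Mir7-1 and miR-7a-2-3p at chr1:142215856-142215877 in Mir8. miR-7b lies at chr9:1167464-1167486 in Mir9. Mir7-1 lies within the span of the protein-coding gene Hnrnpk, which encodes an RNA-binding protein, Mir8 within that of a long noncoding RNA gene (LOC120099863), and Mir9 within that of the pseudogene Rpl35l3. The hairpins of the miR-7a genes, with both mature arms in capitals, show how the same 5p arm is paired with 2 different 3p arms.
Mir7-1: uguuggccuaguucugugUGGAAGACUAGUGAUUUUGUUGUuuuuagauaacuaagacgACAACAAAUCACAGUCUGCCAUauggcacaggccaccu
Mir8: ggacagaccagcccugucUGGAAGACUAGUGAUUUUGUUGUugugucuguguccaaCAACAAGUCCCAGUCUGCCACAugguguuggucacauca

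In these MVNs, miR-7a-5p, miR-7b and miR-7a-2-3p had their highest levels on both SO arrays at 4 h, whereas miR-7a-1-3p was nearly level over all 8 arrays. All 4 were detected on every array. The values given are normalized intensities, that is, the total signal of a miRNA on an array after quantile normalization over the 8 arrays, on a linear scale with no absolute unit. Levels of different miRNAs are not compared with each other, since their probes differ.

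The guide arm miR-7a-5p (rno-miR-7a-5p) had all 16 of its spots well above background on every array. It had a normalized intensity of 868 on each of the SO arrays at 4 h. At 4 d after the sham operation it was 452 on replicate 1 and 318 on replicate 2. In the UVD group it was 414 and 452 at 4 h, and 402 on both arrays at 4 d. The lowest SO array at 4 h was 1.92 times the highest of the other 6 arrays, and SO 4 d overlapped with both UVD groups. The means were 868 ± 0 for SO 4 h, 385 ± 94.7 for SO 4 d, 433 ± 26.8 for UVD 4 h and 402 ± 0 for UVD 4 d (SD, n = 2 arrays each). An SD of 0 came from quantile normalization, which gives the same value to the same rank. Before normalization, the total signals on the SO arrays at 4 h were 745 and 956, and those on the other 6 arrays lay between 309 and 497.

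That 3 members stood highest on the SO arrays at 4 h has to be set beside how often this happened. Of all 422 miRNAs tested, 77 (18.2%) had both of these arrays above the other 6, and 52 (12.3%) had both below. As log2 differences, miR-7a-5p was -1.19 from 4 h to 4 d in the SO group (0.437-fold) and -1.0 between UVD and SO at 4 h (0.498-fold). Both contrasts hold the same SO arrays at 4 h. In each, 3 of the 4 members had lower arrays with no overlap, beside 28.7% of all tested miRNAs from 4 h to 4 d in the SO group and 28.4% between UVD and SO at 4 h.

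**Figure D1:**
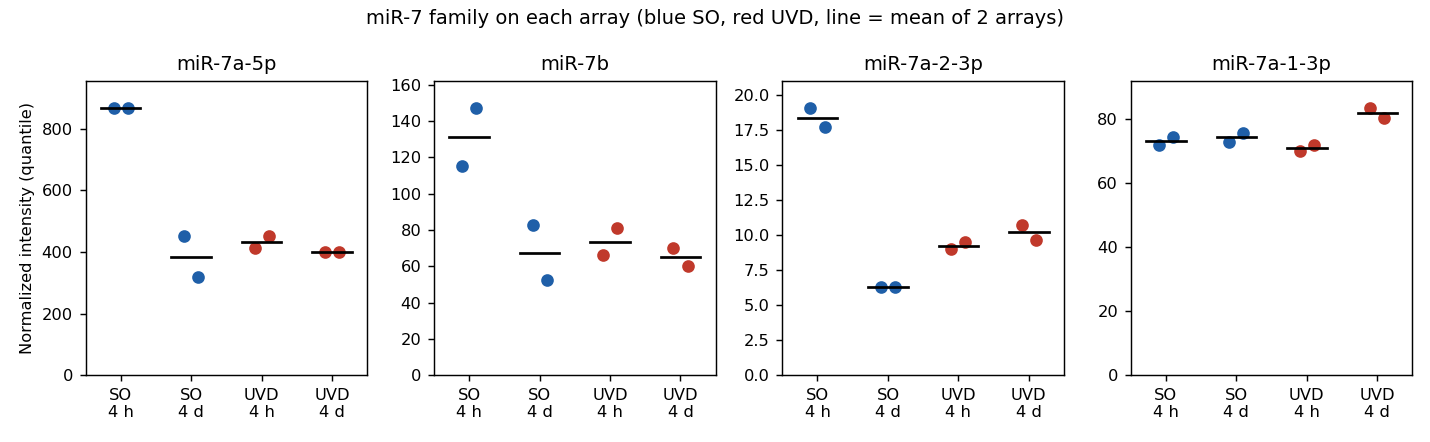
Normalized intensity (y axis, linear, from 0) of each miR-7 family member on each array, by group and timepoint on the x axis. Points are arrays (blue for SO, red for UVD) and lines are means of 2 arrays. For miR-7a-5p, miR-7b and miR-7a-2-3p both SO arrays at 4 h lie above the other 6, while miR-7a-1-3p lies between 70.0 and 83.6 throughout.

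miR-7b, the product of Mir9, had its highest mean in SO 4 h like miR-7a-5p. Its lowest mean was in UVD 4 d, but that of SO 4 d was nearly the same. In the total signals before normalization, SO 4 d had the lowest mean (65.5, against 74.3 in UVD 4 d). It was 115 and 147 on the SO arrays at 4 h, and 82.7 and 52.3 on those at 4 d. In the UVD group it was 66.2 and 81.0 at 4 h, and 70.0 and 60.2 at 4 d. Both SO arrays at 4 h again lay above the other 6, with the lowest 1.39 times the highest of the others, and those others overlapped. The log2 difference was -0.98 from SO 4 h to SO 4 d (0.505-fold) and -0.83 for UVD against SO at 4 h (0.563-fold). With the authors' normalized values these differences were smaller, at -0.48 and -0.45, and without SO 4 d replicate 2 the former was -0.64. Relative to the means, the spread was wider than that of miR-7a-5p in every group. The means were 131 ± 22.8 for SO 4 h, 67.5 ± 21.5 for SO 4 d, 73.6 ± 10.5 for UVD 4 h and 65.1 ± 6.90 for UVD 4 d (SD, n = 2 arrays each).

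miR-7a-2-3p (rno-miR-7a-2-3p), the passenger arm of the Mir8 hairpin, was dim. Its normalized intensity was 19.1 and 17.7 on the SO arrays at 4 h and 6.29 on both SO arrays at 4 d. In the UVD group it was 9.0 and 9.52 at 4 h, and 10.8 and 9.63 at 4 d. Its order thus placed SO 4 h highest, SO 4 d lowest and both UVD groups between them, with no overlap between any pair of the 4 groups. The log2 difference was -1.55 from SO 4 h to SO 4 d (0.343-fold) and -0.99 for UVD against SO at 4 h (0.504-fold). Of its 16 spots, 11 and 14 were well above background on the SO arrays at 4 h, and between 2 and 8 on each of the other 6 arrays.

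The lowest of these values depended on which probes were summed. miR-7a-2-3p has 2 probes on the array, and the deposited total signal was the sum of both on 5 arrays but that of probe 2 alone on 3 arrays, namely both SO arrays at 4 d and replicate 2 of UVD at 4 h. On these 3 arrays the total signals were 7.13, 5.53 and 6.85 with probe 2 alone, and 10.1, 8.70 and 10.2 with both probes. On UVD replicate 1 at 4 h and on both UVD arrays at 4 d, where both had been summed, they were 9.42, 12.7 and 10.5. Probe 1 was near background, with 10 of its 64 spots over the 8 arrays well above it, against 49 of 64 for probe 2. The same kind of difference between arrays was found in 60 of the 377 miRNAs detected on all 8 arrays (15.9%). Among the other members, miR-7a-5p was the sum of its 2 probes and miR-7b that of the same 3 of its 4 probes on every array, and for miR-7a-1-3p the dimmest of 4 probes was left out on 3 arrays.

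With both probes of miR-7a-2-3p summed on every array and normalized again, the SO arrays at 4 h were 18.6 and 17.5 and those at 4 d were 9.57 and 8.98. The UVD arrays were then 9.32 and 11.4 at 4 h, and 11.1 and 9.40 at 4 d. Both SO arrays at 4 h remained above the other 6. The position of SO 4 d below both UVD groups did not remain: UVD replicates 1 at 4 h and 2 at 4 d fell within the range of the SO arrays at 4 d. The log2 difference from SO 4 h to SO 4 d was then -0.96, and that of UVD against SO at 4 h was -0.81.

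miR-7a-1-3p, the passenger arm of the Mir7-1 hairpin, did not share the pattern. It was 71.8 and 74.6 on the SO arrays at 4 h, and 72.9 and 75.8 on those at 4 d. In the UVD group it was 70.0 and 71.8 at 4 h, and 83.6 and 80.5 at 4 d. Both SO arrays at 4 h lay within the range of the others, and in these values only the UVD arrays at 4 d stood above the rest. The log2 difference was 0.02 from SO 4 h to SO 4 d and -0.05 for UVD against SO at 4 h. Its means of 73.2 ± 1.94 (SO 4 h), 74.4 ± 2.03 (SO 4 d), 70.9 ± 1.30 (UVD 4 h) and 82.1 ± 2.16 (UVD 4 d; SD, n = 2 arrays each) had little spread, and 12 or 13 of its 16 spots were well above background on each array. With all of its probes summed on every array, miR-7a-1-3p was 73.0 and 82.8 for SO 4 d. It was then 83.9 and 80.6 for UVD 4 d, so these groups overlapped, as they did with the authors' normalized values. The arms of 1 hairpin, miR-7a-5p and miR-7a-1-3p, thus differed in how their levels were ordered over the groups. miR-7a-5p also comes from the Mir8 hairpin, and the array does not measure how much of it came from either gene.

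Single probes with signal above background followed the member they belong to. In the processed spot signals, with no scaling between arrays, the SO mean at 4 d was 0.425 and 0.478 of that at 4 h for the 2 probes of miR-7a-5p. For probes 2 to 4 of miR-7b it was 0.453, 0.478 and 0.479. For probe 2 of miR-7a-2-3p the ratio was 0.592, and for probes 2 to 4 of miR-7a-1-3p it lay between 0.988 and 1.03. Probe 1 of each of these 3 members was at or near background, with 0 of 32 spots well above it for miR-7b, 1 of 32 for miR-7a-1-3p and 10 of 64 for miR-7a-2-3p, and its ratios are not read.

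The UVD mean at 4 h over the SO mean at 4 h gave a like picture, with 0.429 and 0.466 for miR-7a-5p, 0.457 to 0.490 for probes 2 to 4 of miR-7b, 0.600 for probe 2 of miR-7a-2-3p and 0.891 to 0.934 for probes 2 to 4 of miR-7a-1-3p. At 4 d, the UVD mean over the SO mean was 1.12 for both probes of miR-7a-5p, 1.12 to 1.15 for miR-7b, 1.08 for miR-7a-2-3p and 1.17 to 1.24 for miR-7a-1-3p over the same probes. In the unscaled total signals, the median log2 difference of all tested miRNAs between UVD and SO was itself 0.16 at 4 d and -0.11 at 4 h. Probes of 1 member measure the same RNA on the same arrays and are not replicates.

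**Figure D2:**
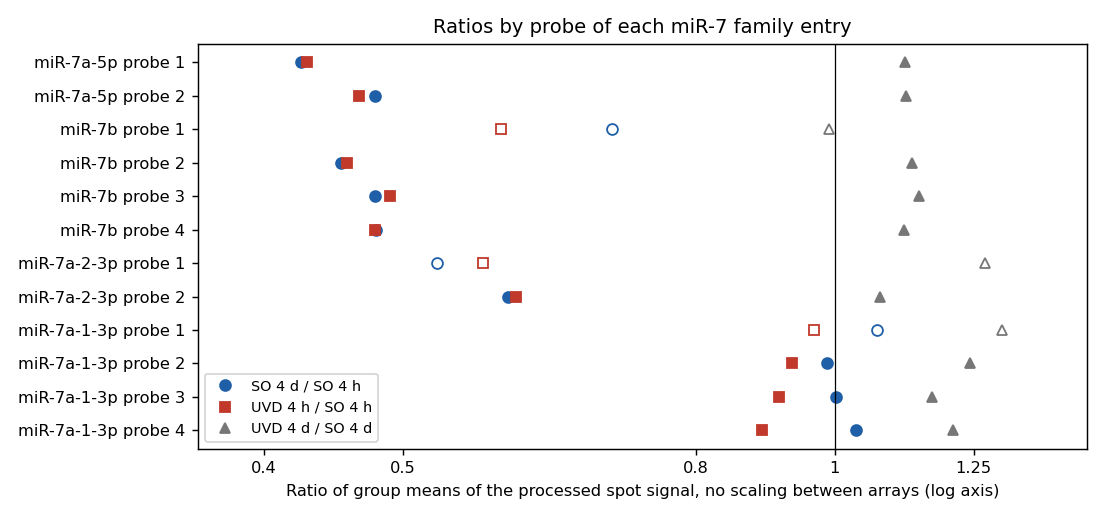
Ratio of group means of the processed spot signal for each probe of each miR-7 family member (x axis, log scale, no scaling between arrays), with 1 probe per line of the y axis. Blue circles are SO 4 d over SO 4 h, red squares UVD 4 h over SO 4 h and grey triangles UVD 4 d over SO 4 d. Open symbols are probes at or near background (probe 1 of miR-7b, miR-7a-2-3p and miR-7a-1-3p). Filled blue and red symbols lie at 0.600 or below for miR-7a-5p, miR-7b and miR-7a-2-3p, and between 0.891 and 1.03 for miR-7a-1-3p.

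The comparison that follows recovery is that of UVD 4 d with UVD 4 h, and its difference holds no sham array. Its UVD arrays at 4 h were also part of the difference at 4 h that was known when the members were chosen. No member passed limma's test at an adjusted p under 0.05, and neither did any other of the 422 miRNAs (0%, while 65 or 15.4% had an unadjusted p under 0.05). Of the 4 members, miR-7a-5p, miR-7a-2-3p and miR-7a-1-3p had UVD arrays at 4 d and 4 h that did not overlap, which was the case for 44.3% of all tested miRNAs. The log2 difference of miR-7a-5p was -0.11 (standard error 0.17, 95% interval -0.54 to 0.32, limma adjusted p = 0.787). That of miR-7b was -0.17, with an interval from -0.84 to 0.49 and an adjusted p of 0.782 by limma. With only the UVD groups fitted, the limma adjusted p was 0.494 for miR-7a-5p and 0.631 for miR-7b. For these guide arms the intervals given leave room for a fall or a smaller rise, so a lack of change was not shown.

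The 3p arms had higher UVD means at 4 d than at 4 h that did not pass either. The log2 difference of miR-7a-1-3p was 0.21 (standard error 0.06, 95% interval 0.07 to 0.35), with an unadjusted limma p of 0.0117 and an adjusted p of 0.235. For miR-7a-2-3p it was 0.14 (interval -0.07 to 0.34, limma adjusted p = 0.420), and -0.02 with both probes summed on every array (limma adjusted p = 0.963).

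The comparison of UVD with SO at 4 d sets the deafferentation against the surgery alone. Over all 422 miRNAs, limma called none (0%, while 16 or 3.79% had an unadjusted p under 0.05). For the members no test is given, because the SO arrays at 4 d are among those known when they were chosen. The intensities of miR-7a-5p were 402 and 402 in the UVD group and lay inside the SO range from 318 to 452, with a log2 difference of 0.08. The UVD arrays of miR-7b likewise lay inside the SO range, with a log2 difference of -0.02.

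At 4 d, the UVD and SO arrays did not overlap for miR-7a-2-3p and miR-7a-1-3p, and 29.4% of all tested miRNAs did not overlap in this comparison. On the log2 scale, miR-7a-2-3p was 0.69 higher in the UVD group. This difference was 0.14 with both probes summed on every array, so its size depended on the probe left out on both SO arrays. It was -0.0024 with background correction by normexp. The difference of miR-7a-1-3p was 0.14. With all of its probes summed on every array it was 0.08, and the UVD and SO arrays then overlapped.

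The change from 4 h to 4 d in the UVD group minus that in the SO group was 1.09 for miR-7a-5p, 0.81 for miR-7b, 1.68 for miR-7a-2-3p and 0.19 for miR-7a-1-3p on the log2 scale. These differences hold the SO values that the members were chosen by, and no test is given. For miR-7a-2-3p it was 0.94 with both probes summed on every array. That of miR-7b lay between 0.39 and 1.24 over the alternatives run, and that of miR-7a-1-3p between -0.0051 and 0.44.

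**Figure D3:**
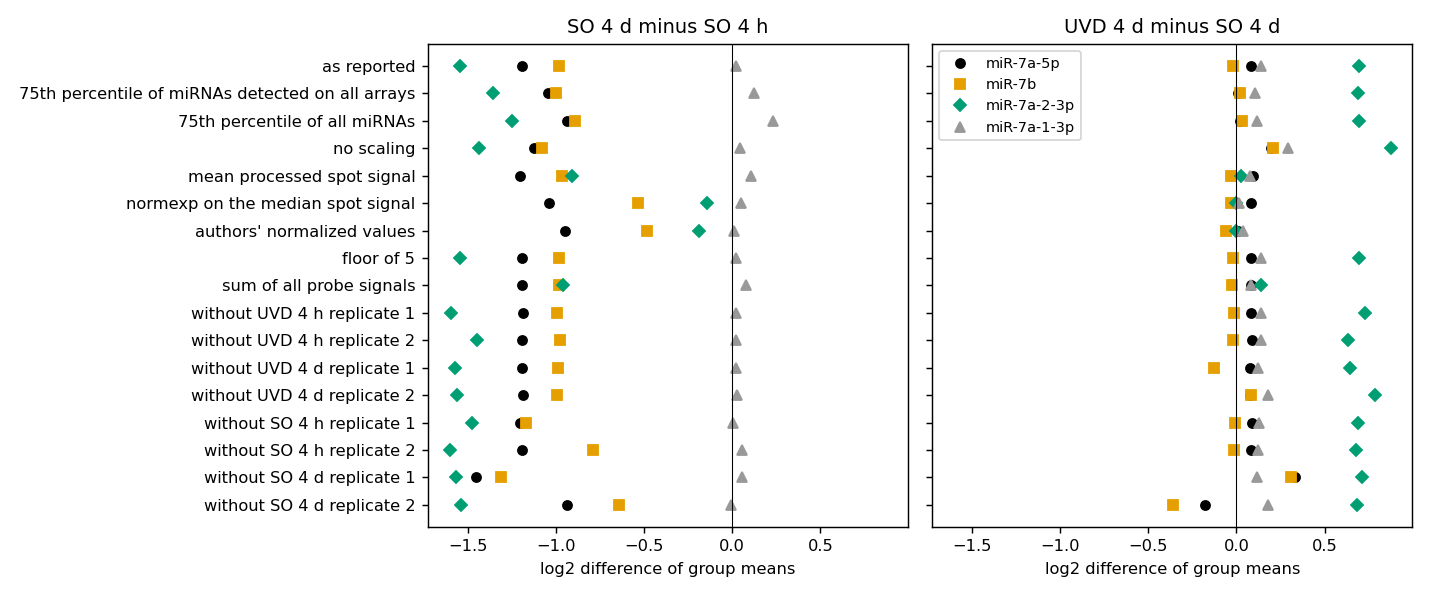
log2 difference of group means (x axis) for the 4 members under each way of processing (y axis), for SO 4 d minus SO 4 h on the left and UVD 4 d minus SO 4 d on the right. Black circles are miR-7a-5p, orange squares miR-7b, green diamonds miR-7a-2-3p and grey triangles miR-7a-1-3p. The miR-7a-5p difference in the SO group lies between -1.45 and -0.94 throughout, whereas that of miR-7a-2-3p moves from -1.60 to -0.14.

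The miRNAs whose profile was most like that of miR-7a-5p were looked for among the other 376 detected on all 8 arrays, as the smallest root mean squared difference of log2 values, each centered on its own mean. They were miR-10b-5p (0.137), miR-10a-5p (0.138), miR-7b (0.143), miR-137-3p (0.155) and miR-764-3p (0.194), against a median of 0.520 over all 376. miR-10a and miR-10b are encoded in Hox gene clusters, and miR-137 is a neuron-enriched miRNA. The family's own miR-7b thus came closely after miR-10b-5p and miR-10a-5p, which have other seeds and lie at other loci. Seen from miR-7b, the nearest was miR-7a-5p (0.143), ahead of miR-764-3p (0.162) and miR-10b-5p (0.185). All these profiles share the same 8 arrays, and each was highest on both SO arrays at 4 h.

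The miRNA nearest to miR-7a-2-3p was miR-7a-5p (0.257), followed by miR-448-5p (0.328), miR-10b-5p (0.332), miR-7b (0.338) and miR-137-3p (0.340), with a median of 0.575 over all. miR-7a-1-3p stood far from the rest of its family: miR-7a-5p ranked 359 of 376 by likeness to it. The 5 nearest to miR-7a-1-3p, which were looked up after its values had been seen, were miR-128-3p, miR-16-5p, miR-181c-5p, let-7g-5p and let-7i-5p, at 0.034 to 0.056, where the median over all 376 was 0.167.

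**Figure D4:**
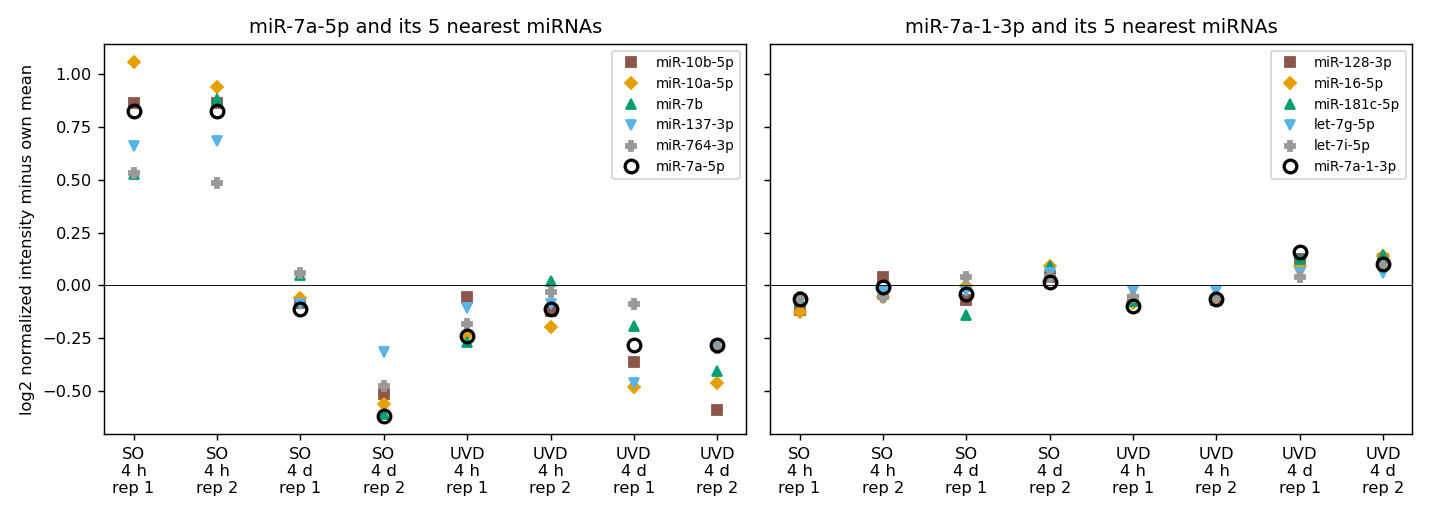
log2 normalized intensity minus the miRNA's own mean (y axis) on each of the 8 arrays (x axis), for miR-7a-5p and its 5 nearest miRNAs on the left and miR-7a-1-3p and its 5 nearest on the right. Open circles are the family member, and other symbols the miRNAs named in each legend. All 6 miRNAs on the left are highest on both SO arrays at 4 h, whereas none of the 6 on the right is.

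Other miRNAs were counted to place the family, from lists drawn up with earlier results of these data known. For the same reason their differences that hold SO arrays are described with no test. Of the miR-7 and Cdr1as list, the only further entry on the array was miR-671, which is known for directing the cleavage of Cdr1as, and it was detected on 0 of 8 arrays. miR-671-3p was not analysed here.

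Of the 13 neuron-enriched miRNAs, 3 had both SO arrays at 4 h above the other 6, beside 18.2% of all 422 tested. These were miR-137-3p, with SO means of 1038 ± 10.9 (4 h) and 569 ± 63.2 (4 d), miR-132-3p (1815 ± 150 and 1289 ± 246) and miR-153-3p (655 ± 36.5 and 522 ± 17.2; SD, n = 2 arrays). The miRNA miR-218a-5p, with 3607 ± 495 and 3139 ± 269, overlapped between the groups. From SO 4 h to SO 4 d, 5 of the 13 had higher means and 8 lower. The median of the list was -0.07 in that contrast and -0.04 for UVD against SO at 4 h, beside 0.00 and -0.01 for all 422 tested.

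The neuroendocrine list, the miRNAs that share the islets and the pituitary with miR-7, had low means in SO 4 h where it was detected. Of its 9 entries, miR-200a-3p, miR-200b-3p, miR-200c-3p and miR-429 were detected on no array. The 5 tested were miR-375-3p, miR-141-3p, miR-182, miR-183-5p and miR-96-5p. All had higher means in SO 4 d than in SO 4 h (median log2 difference 0.69), as had 213 of all 422 tested miRNAs. All also had higher means in UVD than in SO at 4 h (median 0.62), as had 200 of all 422. Only 1 of the 5, miR-375-3p, had both SO arrays at 4 h below the other 6, beside 12.3% of all tested. miR-141-3p had the largest difference in the SO group, with 6.39 ± 4.01 for SO 4 h and 24.6 ± 5.13 for SO 4 d, followed by miR-375-3p with 14.4 ± 3.49 and 25.2 ± 3.78 (SD, n = 2 arrays each).

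Of the 8 miRNAs of the Hox clusters, 2 were tested. Both had the SO arrays at 4 h above the other 6, beside 18.2% of all 422 tested. miR-10a-5p had a mean of 472 ± 27.7 in the SO group at 4 h and between 170 and 203 in the other groups. miR-10b-5p had 256 ± 0 there and between 101 and 132 elsewhere (SD, n = 2 arrays). miR-10a and miR-10b are known for higher levels toward the spinal cord, as the Hox genes around them. In the comparison of UVD 4 d with UVD 4 h, limma called no member of any list.

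Markers of tissue next to the MVN, or mixed into it, were counted in the same way, beside the 12.3% of all tested miRNAs with both SO arrays at 4 h below the other 6. In the list for choroid plexus and ciliated ependyma, which line the fourth ventricle beside the MVN, 5 of 10 miRNAs lay below. These were miR-204-5p and both arms of miR-34b and of miR-34c. The others, miR-204-3p, miR-211-5p, miR-211-3p, miR-449a-5p and miR-1298, overlapped. The mean of miR-1298 was higher in SO 4 h (24.0) than in SO 4 d (14.6) and UVD 4 h (17.4), but lower than in UVD 4 d (86.8). The summed normalized intensity of this list was 5305 to 5501 for SO 4 h, 6229 to 6559 for SO 4 d, 6048 to 6174 for UVD 4 h and 7506 to 9298 for UVD 4 d. In the list for microglia and leukocytes, 2 of 6 lay below, and the sum was 3192 to 3215 on the SO arrays at 4 h and 3492 to 4207 on the others. Of 4 muscle miRNAs, 2 lay below, with sums of 1599 to 2001 on the SO arrays at 4 h and 1771 to 2380 on the others, which overlap. Among oligodendrocyte miRNAs 1 of 4 lay below, with sums of 54738 to 56896 on the SO arrays at 4 h and 45374 to 59718 on the others. Among blood miRNAs 0 of 4 lay below, with sums of 934 to 955 and 740 to 1287, so both of these lists overlap. Each sum given here leans on its brightest members and does not measure an amount of tissue. In SO 4 h the brightest of each list had means of 3820 (miR-204-5p), 2370 (miR-150-5p), 1649 (miR-133b-3p), 29054 (miR-219a-5p) and 760 (miR-451-5p). All members of these lists were detected on at least 1 array. The part of tissue composition in the levels of miR-7a-5p, miR-7b and miR-7a-2-3p was not tested.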

How the data were processed

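miRNA was labeled with Cy3 and hybridized to 8 single-color Agilent arrays. Spot intensity and total gene signal as read by Feature Extraction 10.7.3.1, per the file headers, and quantile-normalized intensity values were deposited by the authors. The members and all lists were chosen with earlier results of these data known.

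The total gene signal was quantile normalized as in the study's methods, which do not name the signal used. Values under 1 were set to 1 before log2. A miRNA entered the test where any group had it detected on both of its arrays, and these 422 were fitted in limma 3.58.1 (R 4.3.3; lmFit and eBayes, 4 groups, all 8 arrays, two-sided, Benjamini-Hochberg over all 422, threshold 0.05), after the code had been tested on simulated data. With 2 arrays per group, their number limits the precision. Replicates are pools of 3 different animals each. Probe totals were matched to the total gene signal within 0.1%.

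The plan was to name all family entries and the rest of the miR-7 and Cdr1as list. It also covered up to 4 of each of the neuron-enriched, neuroendocrine and Hox-cluster lists by size of the SO difference. The 5 nearest profiles of miR-7a-5p and miR-7a-2-3p were planned too. Beyond this plan, other neuron-enriched and neuroendocrine entries, the nearest profiles of miR-7a-1-3p and miR-7b, and markers of neighboring or mixed-in tissue were named. Sequences and coordinates are from RefSeq (GRCr8). Alternatives were other scalings (75th percentile, none), the mean processed spot signal, normexp on the median spot signal (offset 50; the mean signal was not used here), the authors' normalized values, a floor of 5, a replicate block, leaving out each array, and the methods' t-test. The sum of all probe signals, and all alternatives for miR-7b and miR-7a-1-3p, were added after seeing the data.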

Additional observations from a re-analysis of the deposited data

Results flagged for a closer look

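The level of miR-7a-2-3p moved in opposite directions with time in the groups: both UVD arrays at 4 d lay above both at 4 h, and both SO arrays at 4 d lay below both at 4 h. The log2 time change in the UVD group minus that in the SO group was 1.68. This difference was not tested, since it holds the SO values by which the family was chosen. With both probes summed on every array it was 0.94, and the UVD timepoints then overlapped, so that the opposite direction was not kept.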

How the results depend on the processing

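The lower level of miR-7a-5p and miR-7b in SO 4 d and in UVD 4 h than in SO 4 h kept its direction under all alternatives run, as did that of miR-7a-2-3p. For miR-7a-5p, UVD against SO at 4 h was -0.86 and -0.84 on the log2 scale with scaling to the 75th percentile (miRNAs detected on all arrays, all miRNAs), -1.10 with no scaling, -0.89 with normexp and -0.90 with the authors' normalized values, and the SO difference was -1.45 to -0.94 when 1 array was left out. For miR-7b, the SO difference was -0.54 with normexp, -0.48 with the authors' values and -1.31 to -0.64 without 1 array, and UVD against SO at 4 h was -0.47, -0.45 and -1.02 to -0.64.

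For miR-7a-2-3p, the SO difference was -1.36 and -1.25 with the 75th percentiles, -1.44 with no scaling, -0.91 with the mean processed spot signal, -0.96 with all probes summed, -0.14 with normexp, -0.19 with the authors' values and -1.60 to -1.45 without 1 array. In the same order but for no scaling, UVD against SO at 4 h was -0.85, -0.82, -0.80, -0.81, -0.13 and -0.18, and -1.07 to -0.93 without 1 array. The difference of the time changes was 1.53, 1.52, 1.96, 0.82, 0.94, 0.12 and 0.17, and 1.61 to 1.78 without 1 array. The normexp setting adds 50 to the spot signals, and the total signals of this miRNA lay below 20 on every array. The part of this offset in the smaller differences was not tested.

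Directions turned in the following cases. In UVD 4 d against UVD 4 h, miR-7a-2-3p was -0.088 with the mean spot signal, -0.017 with normexp and with the authors' values and -0.016 with all probes summed (0.06 to 0.22 without 1 array). With no scaling, miR-7a-5p was 0.18 and miR-7b 0.16, where the median of all miRNAs was itself at 0.26. In UVD against SO at 4 d, miR-7a-2-3p was -0.0024 with normexp and -0.0032 with the authors' values, and 0.69 with the floor of 5 (0.63 to 0.78 without 1 array). miR-7b was 0.020 and 0.031 with the 75th percentiles, 0.21 with no scaling and -0.36 to 0.31 without 1 array, and miR-7a-5p was -0.18 to 0.33 without 1 array, the former without SO 4 d replicate 2. miR-7a-1-3p, near 0 in UVD against SO at 4 h, was 0.093 and 0.12 with the 75th percentiles, under which the median of all miRNAs was 0.12 and 0.15. Its SO difference was -0.0057 without SO 4 d replicate 2, and its difference of time changes was -0.0051 with the 75th percentile of all miRNAs. The cause of these turns was not tested.

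Counts of called miRNAs moved: from 7 in the SO group to between 0 and 19, from 2 for UVD against SO at 4 h to between 0 and 10, from 0 for UVD 4 d against UVD 4 h to up to 11, and from 0 for UVD against SO at 4 d to up to 5. The methods' t-test gave 144, 132, 114 and 59 at the methods' p limit alone, and 0 after Benjamini-Hochberg. The study's limits on fold change and its exclusions of miRNAs were not applied to these counts. The t-test was undefined for 12, 13, 13 and 8 miRNAs in the same order. Replicate numbers did not pair the samples (correlations of deviations from -0.255 to 0.193 over 6 pairs of groups). With the replicate block, the SO count was 2 and the other counts stayed at 2, 0 and 0. In UVD 4 d against UVD 4 h the block changed no call of a member (miR-7a-2-3p stayed at 0.14, limma adjusted p = 0.495).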
